A study of Mus musculus with 16 samples.

Results

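VSM_2 is a cluster that the authors named in single-cell RNA sequencing of brown fat from mice. The cells were those of the stromal vascular fraction, which remains when digested tissue has been freed of its floating adipocytes. The series title gives VSM as vascular smooth muscle. All cells with this name in the smaller of 2 per-cell tables were taken: 2091 of the 24352 cells that carried a name, out of 109723 cells in all. The other VSM clusters together held 10281 cells. VSM_2 ranked 3 by size among 10 VSM clusters, after VSM_0 with 2287 cells and VSM_1 with 2229 cells, and just above VSM_3 with 1898 cells.

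The cells came from interscapular brown adipose tissue of C57BL6J mice. Mice were housed at thermoneutrality (30 °C for 1 week), at room temperature (22 °C for 1 week), or in the cold at 5 °C for 2 days or for 7 days. The labels name no transgene and no agent in any group. There were 4 libraries per condition. One library, replicate 1 of 2-day cold, held no named cell, so 2-day cold is represented by 3 libraries below. The labels do not say that libraries came from separate animals, so the p-values measure the spread between these libraries, which may be partly technical.

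Vascular smooth muscle cells form the contractile layer of arteries, arterioles and veins and set blood flow through a tissue. Brown adipose tissue is densely vascularised, and its blood supply carries oxygen and fuel to the heat-producing adipocytes and takes the heat away. Cells of the vessel wall have also been studied as a source of thermogenic adipocytes in cold-exposed fat. Contractile smooth muscle is usually recognised by Acta2 (smooth muscle actin), Myh11 (smooth muscle myosin heavy chain), Tagln (transgelin) and Cnn1 (calponin). Gene values were not analysed here, so the name VSM_2 could not be checked against these genes, and the cluster is described by cell numbers, depth, mitochondrial share and the cell cycle scores of its cells.

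Whole libraries held 1473 to 10005 cells, with median depths of 1978.5 to 9819 UMIs (unique molecules counted per cell). The 2-day library without named cells had a median mitochondrial share of 29.1%. The number of VSM_2 cells per library ran from 7, in room temperature replicate 4, to 415, in room temperature replicate 2. No barcode occurred in more than 1 library among VSM_2 cells, and 67 VSM_2 cells had a barcode that was also found in another library of the larger table.

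VSM_2 cells made up less of the named cells after 7 days of cold than at thermoneutrality. At thermoneutrality VSM_2 was 8.05%, 8.61%, 12.05% and 13.7% of the named cells in replicates 1 to 4. After 7 days at 5 °C it was 3.699%, 3.75%, 3.11% and 2.98%. The 2 conditions did not overlap, and the 7-day libraries lay close together. The means were 10.6% ± 2.70 (SD, n = 4) and 3.38% ± 0.396 (SD, n = 4). The 95% Wilson intervals of the single 7-day libraries, which cover counting error only, reached at most 5.26%. On the log2 odds scale the share fell by 1.70 ± 0.53 (SE), with an adjusted p of 0.0256 in limma. In this comparison 10 of 27 tested clusters, 37%, passed the threshold of 0.05, and VSM_2 was the one cluster among them that was lower. Being the one lower call does not set VSM_2 apart from all other VSM clusters. In its log2 ratios to each of the 9 others, given below, 7 estimates were negative and 2 of these passed. The other 2, to VSM_1 (0.26) and VSM_27 (0.34), were positive.

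In their mix of VSM clusters, thermoneutral replicates differed less within numbers 1 and 2 and within 3 and 4 (chi-square per degree of freedom 4.60 and 2.82) than across these pairs (16.8 to 99.97). In 7-day cold this did not hold, with 3.58 and 6.87 within the pairs and 3.55 to 7.70 across them. At room temperature the values were 7.89 and 1.64 within and 7.62 to 66.6 across. In 2-day cold they were 8.86 within replicates 3 and 4, and 12.6 and 28.4 across. Chi-square grows with the number of cells for the same difference in mix. Libraries held 132 to 296 VSM cells in 7-day cold and 221 to 2006 at thermoneutrality. Values from libraries of unlike size therefore do not compare as sizes of difference. The lower 7-day share of VSM_2 was seen in both pairs of replicate numbers. The difference in log2 odds was -1.22 for replicates 1 and 2 alone and -2.19 for replicates 3 and 4 alone. It was no longer past the threshold without thermoneutral replicate 3 (adjusted p = 0.0693, limma) or thermoneutral replicate 4 (adjusted p = 0.0829, limma). It also missed the threshold when cells called S or G2M were left out of all clusters, with a difference of -1.51 and an adjusted p of 0.0920 in limma.

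The means of the other conditions lay between these 2, at 8.06% ± 4.89 (SD, n = 4) for room temperature and 6.79% ± 1.57 (n = 3) for 2-day cold. At room temperature VSM_2 was 9.93%, 13.5%, 6.86% and 1.96% of named cells, the widest spread of any condition. In 2-day cold it was 6.02%, 8.60% and 5.75% in replicates 2 to 4. All 3 of these 2-day libraries lay above all 7-day libraries, while room temperature overlapped with every other condition. None of the remaining contrasts passed in limma. The log2 odds differences were -0.69 for 2-day cold against thermoneutrality (adjusted p = 0.424), -0.68 for room temperature against thermoneutrality (adjusted p = 0.580), -1.02 for 7-day cold against room temperature (adjusted p = 0.164) and -1.01 for 7-day against 2-day cold (adjusted p = 0.549). In these 4 contrasts 11.1%, 0%, 7.41% and 0% of the 27 clusters passed. Where none passed, 1 and 2 clusters had an unadjusted p under 0.05, and edgeR called 0. Room temperature replicate 4 decided one of them: without it, 7-day cold against room temperature gave -1.61 with an adjusted p of 0.0122 in limma.

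The fall went along with a smaller share of VSM cells as a whole. VSM cells of all 10 clusters were 58.5% ± 13.6 (SD, n = 4) of named cells at thermoneutrality and 30.5% ± 6.92 (SD, n = 4) after 7 days of cold. A share of named cells moves with the numbers of all other named cells. VSM_2 was therefore also counted against the other VSM cells alone.

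**Figure D1:**
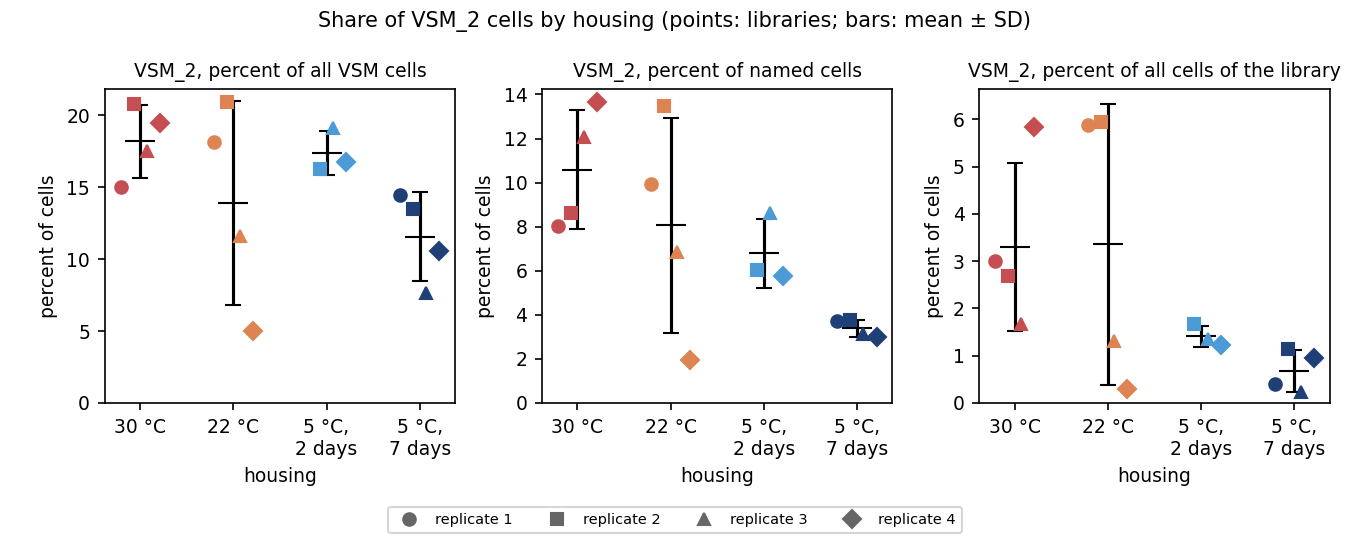
VSM_2 cells as percent of all VSM cells, of named cells and of all cells of the library (y axes, percent), by housing (x axis); each point is 1 library, with its replicate number as the symbol, and bars give the mean ± SD. Shares of named cells after 7 days at 5 °C, 2.98% to 3.75%, lie below every library at 30 °C, while the share of VSM cells differs less.

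Within the VSM cells, every 7-day library held a smaller part of VSM_2 than any thermoneutral one, but the difference did not pass the test over clusters. VSM_2 was 15.0%, 20.8%, 17.5% and 19.5% of VSM cells at thermoneutrality. After 7 days of cold it was 14.5%, 13.5%, 7.63% and 10.6%. The highest 7-day library lay just below the lowest thermoneutral one, and their Wilson intervals overlapped widely (10.3% to 20.0% and 13.5% to 16.6%). The log2 ratio of VSM_2 to the other VSM cells differed by -0.78 ± 0.48 (SE), with a 95% interval from -1.805 to 0.25 and an adjusted p of 0.217 in limma. The exact permutation test on the 8 library values gave a two-sided p of 0.0286, the smallest that 70 assignments allow, and 0.171 after adjustment over 6 contrasts. Within replicates 1 and 2 the difference was -0.39, and within replicates 3 and 4 it was -1.16.

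Counted in this way, 14 of 27 clusters, 51.9%, passed for 7-day cold against thermoneutrality, all of them higher per other VSM cell. Of the 10 VSM clusters 2 passed, VSM_21 and VSM_22. VSM_2 ranked 3 from the lowest estimate of the 10.

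At room temperature VSM_2 was 18.2%, 20.9%, 11.6% and 5.04% of VSM cells, and in 2-day cold 16.3%, 19.2% and 16.7%. The lowest of these, room temperature replicate 4, rested on 7 of 139 VSM cells, with a Wilson interval from 2.46% to 10.0%. The 2-day libraries lay inside the thermoneutral range. Per other VSM cell the log2 difference was -0.07 for 2-day cold against thermoneutrality (95% interval -1.19 to 1.04), -0.62 for room temperature against thermoneutrality (-1.64 to 0.41), -0.16 for 7-day cold against room temperature (-1.19 to 0.87) and -0.70 for 7-day against 2-day cold (-1.81 to 0.41). None passed in limma, with adjusted p-values from 0.653 to 0.960, and 37%, 0%, 33.3% and 0% of the 27 clusters passed. Where none passed, 1 and 2 had an unadjusted p under 0.05 and edgeR called 0. VSM_2 did not pass in 2-day cold against room temperature either, where 3.7% did. Within replicates 1 and 2, 7-day cold against room temperature gave -0.56, and within replicates 3 and 4 it gave 0.24, so the direction did not hold in both.

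As a share of all cells, named or not, VSM_2 was 3.01%, 2.68%, 1.67% and 5.83% at thermoneutrality, 5.88%, 5.93%, 1.31% and 0.294% at room temperature, 1.66%, 1.35% and 1.22% in 2-day cold, and 0.394%, 1.15%, 0.222% and 0.9504% in 7-day cold. Thermoneutral and 7-day libraries again did not overlap. The log2 odds difference of -2.43 ± 0.89 (SE) had an adjusted p of 0.0887 in limma. This fall was not particular to VSM_2. VSM_1 (-2.70), VSM_27 (-2.74) and VSM_0 (-1.81) had the same adjusted p, while VSM_21 went the other way (1.66). In that comparison 0% of the 27 clusters passed, and 9 had an unadjusted p under 0.05, while edgeR also called 0. Replicates 1 and 2 alone gave -2.10, and replicates 3 and 4 alone gave -2.77. Against room temperature the 7-day difference was -1.82 (adjusted p = 0.192, limma), and without room temperature replicate 4 it was -2.71 with an adjusted p of 0.0329. These shares depend on how many cells of other types each digest gave. Fewer VSM_2 cells in the tissue and fewer VSM_2 cells freed from it cannot be told apart.

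A ratio between 2 clusters does not depend on the total. In 7-day cold against thermoneutrality, the ratio of VSM_2 to each of the 26 other tested clusters passed for 15 of them, 57.7%, and VSM_2 was the lower in all 15. All 26 ratios share the same VSM_2 counts, so they are not separate tests, and their common direction is not separate evidence. Among the 17 clusters without a VSM number VSM_2 fell against 13. The 5 largest of these differences were against Adipo_16 (-5.95), Adipo_24 (-4.83), Schwann_18 (-4.58), Schwann_14 (-4.28) and AP_25 (-4.18), all on the log2 scale. Thermoneutral replicates 1 to 4 held 1, 1, 0 and 0 cells of Adipo_16 and 4, 0, 0 and 0 of Adipo_24. They held 61, 1, 3 and 3 cells of Schwann_18, and 71, 2, 0 and 2 of AP_25. Schwann_14 had more, at 100, 7, 13 and 24. Apart from Schwann_14, the sizes and order of these differences rest largely on few thermoneutral cells and the 0.5 cells added to each count. Names are as the authors gave them: Schwann cells are the glia of peripheral nerves, and Adipo and AP are kept as labels.

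Among the other 9 VSM clusters, VSM_2 fell against 2, VSM_21 and VSM_22. VSM_21 was 1.30%, 1.36%, 0.839% and 0.838% of VSM cells at thermoneutrality and 14%, 19.3%, 8.43% and 7.58% after 7 days of cold. The 2 conditions were far apart. The log2 ratio of VSM_2 to VSM_21 fell by 4.04 ± 0.63 (SE), with an adjusted p of 0.000160 in limma. VSM_22 was 4.19%, 3.62%, 0.839% and 1.23% of VSM cells at thermoneutrality and 9%, 4.05%, 11.2% and 3.03% in 7-day cold, with overlap between the conditions. The log2 ratio of VSM_2 to VSM_22 fell by 2.26 ± 0.85 (SE), with an adjusted p of 0.0291 in limma. That call was lost without any one of thermoneutral replicates 3 and 4 and 7-day replicates 1 and 3, with adjusted p-values from 0.0628 to 0.112. VSM_21 had the lowest median depth of the VSM clusters, 3120 UMIs against 10000 in VSM_2, and VSM_22 the highest mitochondrial share, 10.5% against 8.36%. The part of depth and mitochondrial share in these ratios was not tested.

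Against the other 7 VSM clusters the ratio did not pass. The log2 differences were -1.41 against VSM_20, -1.10 against VSM_3, -0.81 against VSM_7, -0.67 against VSM_5, -0.62 against VSM_0, 0.26 against VSM_1 and 0.34 against VSM_27. The intervals of the first 2 only just reached zero, ending at 0.04 and 0.03. VSM_20 passed in limma without thermoneutral replicate 3 (adjusted p = 0.0493) or room temperature replicate 4 (0.0436), and VSM_3 without room temperature replicate 4 (0.0385). In 7-day cold against room temperature 7 of the 26 ratios passed, 26.9%, again all lower, and VSM_21 was the one VSM cluster among them (-2.82, adjusted p = 0.00539, limma). In 2-day cold against thermoneutrality 1 of 26 passed, 3.85%, with 9 under an unadjusted p of 0.05, and in the other 3 contrasts 0 of 26 passed, with 1 to 3 under it.

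**Figure D2:**
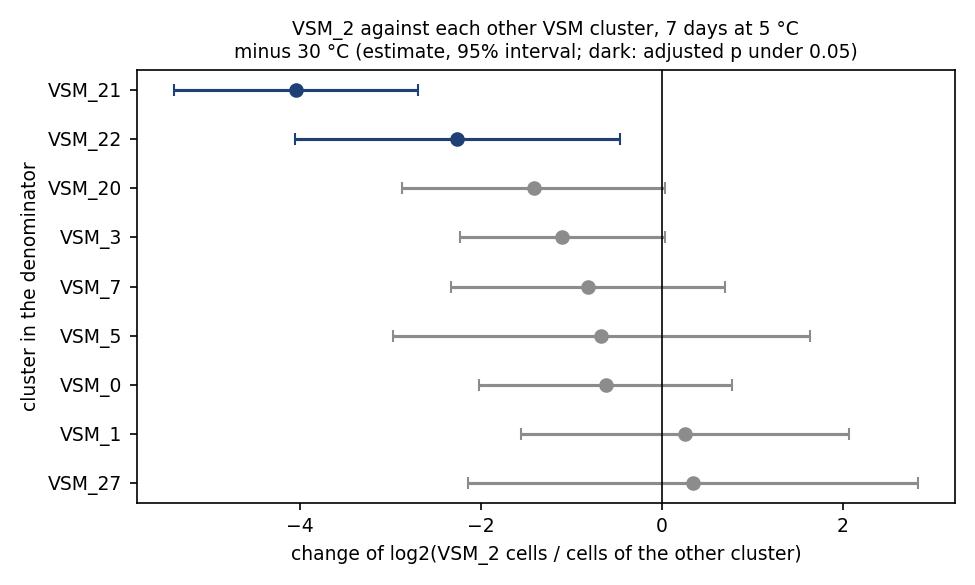
Change of log2(VSM_2 cells / cells of the other cluster) between 7 days at 5 °C and 30 °C (x axis) for each other VSM cluster (y axis); points are limma estimates and lines 95% intervals, dark where the adjusted p is under 0.05. VSM_21 at -4.04 and VSM_22 at -2.26 are the 2 whose intervals lie wholly below zero.

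VSM_2 cells were deep and rich in detected genes. Over all libraries their median was 10000 UMIs and 2842 genes per cell, against 8281 UMIs and 2606 genes in the other VSM cells. Among the 10 VSM clusters they ranked 2 in UMIs, below VSM_3 with 13126, and 3 in genes. Their median mitochondrial share, the percent of UMIs from mitochondrial transcripts, was 8.36%, against 7.69% in the other VSM cells. In this share VSM_2 ranked 3 of 10, below VSM_22 with 10.5% and VSM_27 with 8.52%. VSM_0 with 8.31% and VSM_1 with 8.19% were close to it. Within each of the 15 libraries the VSM_2 median was the higher one for all 3 measures. The clusters were made from the genes of these cells, so these are descriptions with no test.

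Median depth of VSM_2 cells differed widely between libraries of one condition. It was 8479, 14005.5, 6380 and 8494 UMIs at thermoneutrality, 13762, 10894, 6331 and 13918 at room temperature, 12847, 12409 and 7739 in 2-day cold, and 13872, 18967.5, 9685 and 12057.5 in 7-day cold. Conditions overlapped in every pair. Limma was run on 14 libraries, without room temperature replicate 4 and its 7 cells, over the 9 named clusters with at least 10 cells in each of these libraries. The 7-day minus thermoneutral difference was 0.56 ± 0.36 (SE) in log2 UMIs (adjusted p = 0.153) and 0.36 ± 0.23 in log2 genes (adjusted p = 0.142), where 11.1% and 0% of the 9 clusters passed, with 3 under an unadjusted p of 0.05 in the second. With a covariate for the pair of replicate numbers (1 and 2, or 3 and 4), both passed in limma, at adjusted p-values of 0.0483 and 0.0466.

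The mitochondrial share was the most even measure in 7-day cold, at 10.8%, 10.9%, 11.1% and 11.1%. It was 7.35%, 8.92%, 9.28% and 9.69% at thermoneutrality, 8.61%, 7.43%, 8.96% and 11.3% at room temperature, and 6.13%, 9.54% and 8.55% in 2-day cold. The one library above the 7-day range was room temperature replicate 4. In limma, without that library, the log2 share rose by 0.40 ± 0.16 (SE) against room temperature (adjusted p = 0.0444) and by 0.46 ± 0.16 against 2-day cold (adjusted p = 0.0493). In these contrasts 77.8% and 44.4% of the 9 clusters passed. Replicates 1 and 2 alone gave 0.44 and 0.82, and replicates 3 and 4 alone gave 0.31 and 0.30. Against thermoneutrality the difference was 0.32 ± 0.14 (adjusted p = 0.131), where 11.1% passed, and it passed with the covariate for the pair of replicate numbers (adjusted p = 0.0399, limma). The calls against room temperature and 2-day cold were close to the threshold, and each was lost in 10 of 14 fits that left out a single library. The rise was shared with the other VSM clusters in the fit: VSM_0, VSM_1 and VSM_3 had estimates of 0.37 to 0.42 against room temperature, and 3 of 3 passed. The difference between VSM_2 and the other VSM cells of the same library averaged 0.802 points ± 0.103 (SD, n = 4) at thermoneutrality and 1.25 ± 0.607 (n = 4) in 7-day cold, with an exact permutation p of 0.229. It averaged 0.700 ± 0.219 (n = 4) at room temperature and 0.431 ± 0.0517 (n = 3) in 2-day cold. Exact permutation p-values of 7-day cold against these 2 were 0.143 and 0.0571. After adjustment over 24 tests, the p-values of these 3 contrasts were 0.499, 0.381 and 0.229.

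**Figure D3:**
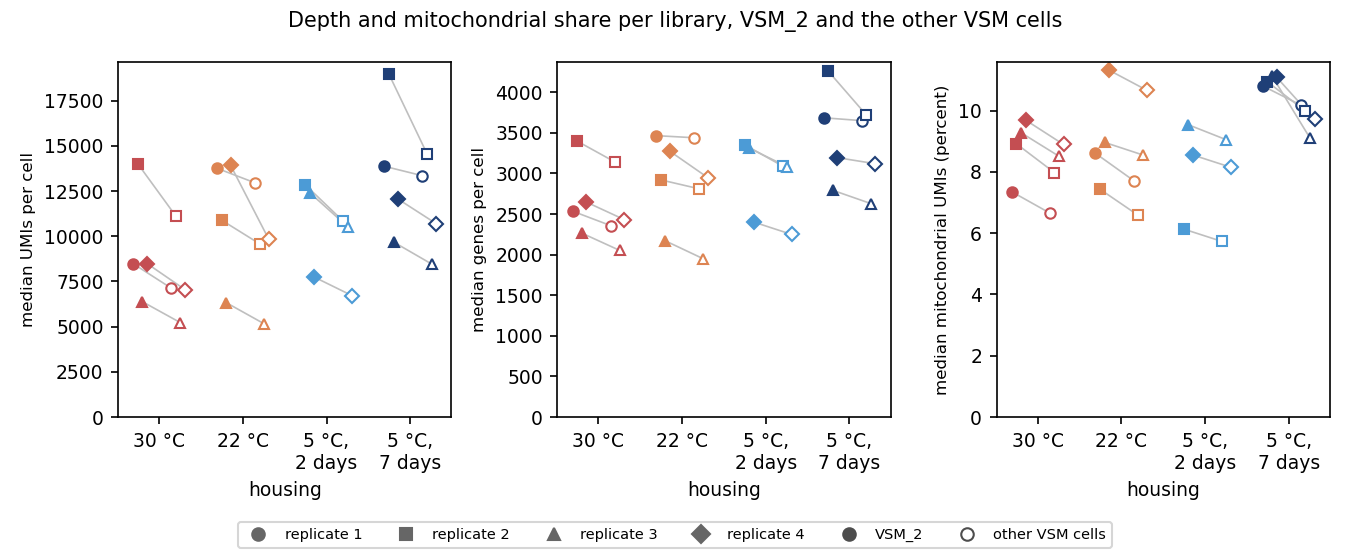
Median UMIs per cell, median genes per cell and median mitochondrial percent (y axes) of VSM_2 cells (filled) and of the other VSM cells (open) of the same library, joined by a line, by housing (x axis). In all 15 libraries the filled point is the higher one in the 3 panels, and the 4 VSM_2 medians of mitochondrial percent after 7 days at 5 °C lie between 10.8% and 11.1%.

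The authors gave each cell an S score and a G2M score, which sum up genes of DNA synthesis and of mitosis, and a phase call of G1, S or G2M made from them. In the table of named cells, fewer VSM_2 cells were called S or G2M after 7 days of cold than in any other condition. The share was 48.8%, 39.1%, 56.9% and 55.3% at thermoneutrality, 48.5%, 59.3%, 61.8% and 57.1% at room temperature, and 36.2%, 34.8% and 51.6% in 2-day cold. After 7 days it was 17.2%, 15.0%, 26.3% and 28.6%, from 4 to 6 cells per library. All 7-day libraries lay below all others. The log2 odds in limma, again on 14 libraries and 9 clusters, fell by 1.799 ± 0.37 (SE) against thermoneutrality (adjusted p = 0.000654), by 2.18 ± 0.40 against room temperature (adjusted p = 0.000162) and by 1.26 ± 0.40 against 2-day cold (adjusted p = 0.0136). In these contrasts 88.9%, 55.6% and 55.6% of the 9 clusters passed. The call against 2-day cold was lost without 2-day replicate 4 (adjusted p = 0.0867, limma). The difference from thermoneutrality was -1.94 for replicates 1 and 2 alone and -1.66 for replicates 3 and 4 alone. The difference of 2-day cold from thermoneutrality was -0.54 (adjusted p = 0.335), where 0% passed and 3 clusters had an unadjusted p under 0.05.

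The lower share was not particular to VSM_2. Against thermoneutrality 7 of the 9 clusters fell and AP_9 rose. The other VSM clusters in the fit all fell, VSM_0 by 1.78, VSM_3 by 1.48 and VSM_1 by 1.07 on the log2 odds scale. Other VSM cells of the 7-day libraries were called S or G2M in 34.5%, 35.2%, 42.2% and 39.8% of cells. On the calls of the table of named cells, VSM_2 lay below the other VSM cells in all 15 libraries. It ranked 8 from the highest of the 10 VSM clusters, with 50.2% of its cells called over all libraries. VSM_3 (39.3%) and VSM_22 (32.8%) lay lower. The gap between VSM_2 and the other VSM cells averaged -16.1 points ± 3.71 (SD, n = 4) after 7 days of cold. It was -8.49 ± 1.90 (n = 4) at thermoneutrality and -3.81 ± 1.95 (n = 4) at room temperature. The gap in 7-day cold differed from that at thermoneutrality by -7.65 points and from that at room temperature by -12.3 points. The gap at room temperature differed from that at thermoneutrality by 4.68 points. All 3 exact permutation tests gave p = 0.0286, the smallest that 70 assignments allow, and 0.171 after adjustment over 24 tests. The mix of the other VSM cells also changed. VSM_21, with 62.3% of its cells called S or G2M, averaged 1.08% of VSM cells at thermoneutrality and 12.3% in 7-day cold. VSM_22, with 32.8% called, averaged 2.47% and 6.83%. The part of this mix in the gap was not tested.

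The S and G2M calls were not tested apart. Cells called S averaged 28.9% ± 1.44 (SD, n = 4) of VSM_2 at thermoneutrality and 17.3% ± 5.999 (n = 4) in 7-day cold, and cells called G2M 21.1% ± 7.17 and 4.43% ± 6.77. In 7-day cold the mean G2M score per library fell by 0.0296 ± 0.0055 (SE) against thermoneutrality (adjusted p = 0.000515), by 0.0355 ± 0.0060 against room temperature (adjusted p = 0.000204) and by 0.0200 ± 0.0060 against 2-day cold (adjusted p = 0.0132), all in limma, where 55.6%, 44.4% and 55.6% of the 9 clusters passed. Without 2-day replicate 4 the call against 2-day cold was lost (adjusted p = 0.0610, limma). The difference of 2-day cold from thermoneutrality was -0.00966 (adjusted p = 0.353), where 22.2% passed. The mean S score fell by 0.0110 against room temperature (adjusted p = 0.0474, limma), where 44.4% passed, and that call was lost in 13 of 14 fits without a single library. Its difference from thermoneutrality was -0.00716 (adjusted p = 0.156, limma), where 11.1% passed, and with that covariate it passed (adjusted p = 0.0224).

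The phase calls differed between the 2 tables, and how each table was scored is not given in the sources used here. Of the 2091 VSM_2 cells, 1049 (50.2%) were called S or G2M in the table of named cells and 84 (4.02%) in the table of all cells. The calls were equal for 53.8% of the cells. All 84 carried the same call in both tables. The remaining 526 cells called S and 439 called G2M among the named cells were G1 in the table of all cells. In the table of all cells the 7-day libraries had 0, 0, 0 and 1 VSM_2 cell called S or G2M, and the thermoneutral ones 5, 1, 12 and 11. The 7-day counts of 0, in 29, 40 and 19 cells, allow shares of up to 10.3%, 7.5% and 15.8%. On those calls the log2 odds differences of 7-day cold were -0.37 against thermoneutrality (adjusted p = 0.822), -1.13 against room temperature (adjusted p = 0.278) and -0.30 against 2-day cold (adjusted p = 0.818), so no call held in limma. The 7-day G2M score of that table fell by 0.0322 against thermoneutrality (adjusted p = 0.000243, limma). Its shares called S or G2M averaged 1.79% in VSM_2 and 5.36% in other VSM cells in 7-day cold. They were 3.54% and 6.07% at thermoneutrality, and 4.52% and 10.1% at room temperature. That gap was thus wider at room temperature than in 7-day cold. In that table VSM_2 lay below the other VSM cells in 14 of 15 libraries. The exception was 7-day replicate 4, at 7.14% against 2.54%. No share of dividing cells can be read from such calls alone.

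**Figure D4:**
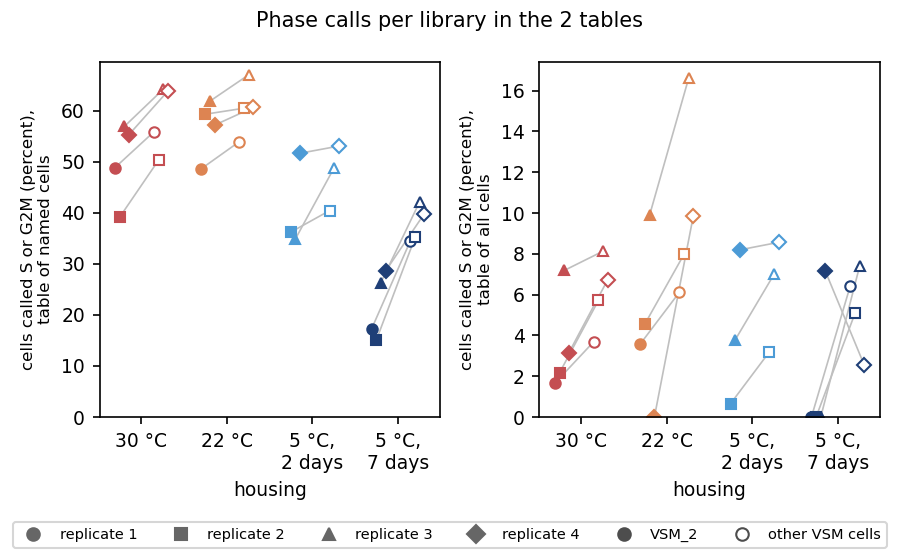
Cells called S or G2M, in percent (y axes, with different ranges), of VSM_2 (filled) and of the other VSM cells (open) of the same library, joined by a line, by housing (x axis); the left panel has the calls of the table of named cells and the right panel those of the table of all cells. After 7 days at 5 °C the VSM_2 shares are 15.0% to 28.6% on the left, and 0 in 3 of 4 libraries on the right.

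The share called S or G2M also moved with depth. Split at the quartiles of VSM_2 depth (7415.5, 10000 and 13897 UMIs), it was 55.4% in the shallowest quartile of the cells, then 53.8%, 48.6% and 42.8% in the deepest. Of the 102 VSM_2 cells of 7-day cold, 58 were in the deepest quartile. There 13.8% of the 7-day cells were called S or G2M, against 43.0% of 142 thermoneutral cells, 55.1% of 196 room temperature cells and 37.0% of 127 cells of 2-day cold. Quartile shares pool the cells of all libraries and were not tested. Single libraries with at least 5 such cells ran from 0% to 33.3% in 7-day cold and from 33.3% to 66.7% at thermoneutrality. They ran from 47.6% to 61.2% at room temperature and from 33.3% to 40% in 2-day cold. In the next quartile below the deepest the shares were closer, at 37.5% of 24 cells in 7-day cold, 51.9% of 131 at thermoneutrality, 53.5% of 245 at room temperature and 37.4% of 123 in 2-day cold. Only 2 of the 7-day libraries had at least 5 cells in that quartile, at 14.3% and 50%. The 2 shallower quartiles held 15 and 5 cells of 7-day cold, with 3 and 0 called S or G2M. With cells between the lowest and the highest of these quartiles alone, the log2 odds difference was -1.30 against thermoneutrality (adjusted p = 0.0160, limma) and -1.45 against room temperature (adjusted p = 0.0132), while that against 2-day cold, -0.60, no longer passed (adjusted p = 0.281). That fit covered and adjusted over VSM_0, VSM_1 and VSM_2 alone, the clusters with at least 5 such cells in each library fitted. The minimum was 10 cells in the fit of all depths. VSM_2 cells of 7-day cold numbered 5 and 24 in these 2 quartiles.

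VSM_2 was 1 cluster at the resolution the names were given for, 1.2, and was divided at some lower and higher ones. In the coarsest clustering of the named cells all 2091 cells fell in 1 cluster of 12473 cells. At resolutions 0.4, 0.8 and 1, the leading cluster held 75.3%, 89.8% and 87.6% of the VSM_2 cells, and at 0.6 it held 99.3% of them. At resolution 1.4, 2035 of them (97.3%) were still together. At resolution 1.8, the highest, 1229 cells (58.8%) were in finer cluster 3, where 17.6% of the cells were VSM_3 cells, and 756 (36.2%) in finer cluster 0, where 57.1% were VSM_1 cells. VSM_2 cells in finer cluster 3 had a median of 10477 UMIs and those in finer cluster 0 of 8643 UMIs.

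The balance of these pieces differed widely between libraries of one condition. Finer cluster 0 held 14.6%, 32.6%, 56.3% and 51.3% of VSM_2 cells at thermoneutrality, 40.7%, 22.9%, 75.6% and 42.9% at room temperature, 17.8%, 49.2% and 30.3% in 2-day cold, and 31.0%, 22.5%, 21.1% and 57.1% in 7-day cold. Every pair of conditions overlapped. The exact permutation tests gave adjusted p-values of 0.857 or more over 6 contrasts. As shares of named cells both finer clusters, which include VSM_1 or VSM_3 cells, fell in 7-day cold against thermoneutrality. Finer cluster 0 fell by 1.85 ± 0.68 (SE) and finer cluster 3 by 1.60 ± 0.58 in log2 odds, both with an adjusted p of 0.0426 in limma, where 11 of 32 finer clusters, 34.4%, passed. Leaving out a single library ended the first call in 8 of 15 fits and the second in 9 of 15. Against room temperature the differences were -1.72 (adjusted p = 0.116) and -0.98 (adjusted p = 0.243), where 6.25% passed.

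**Figure D5:**
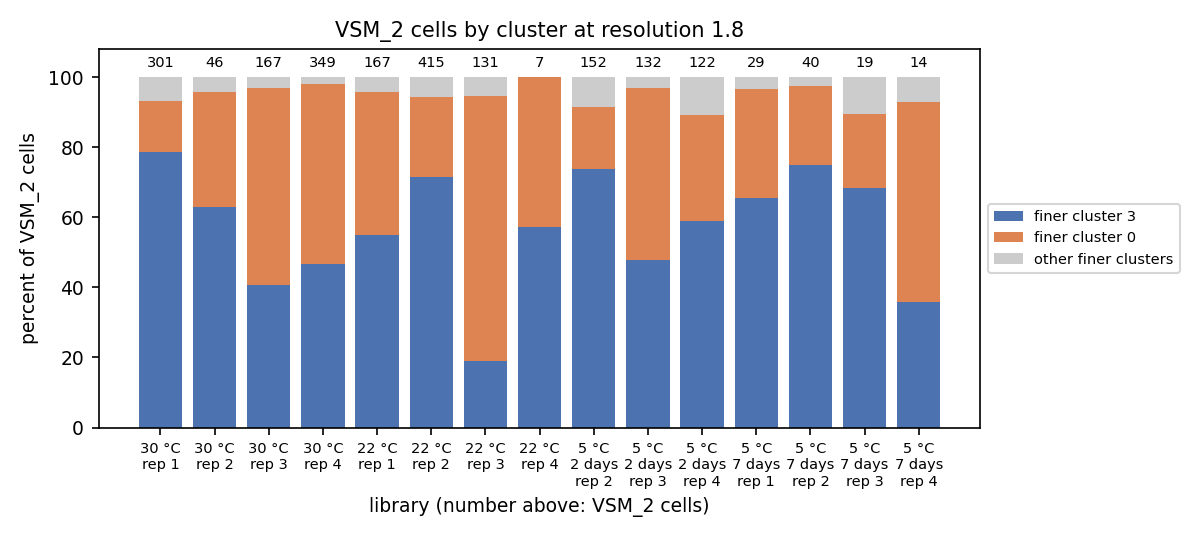
Percent of the VSM_2 cells of each library (x axis; the number above each bar is its VSM_2 cell count) that fall in finer cluster 3, finer cluster 0 or any other cluster at resolution 1.8 (y axis). The share in finer cluster 0 runs from 14.6% to 75.6% and overlaps between all conditions.

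In the clustering of all cells at the same resolution, VSM_2 cells shared clusters with other VSM cells. Of the 2091, 1130 were in a cluster of 5773 cells whose named cells were 40.8% VSM_1, 23.8% VSM_5 and 21.3% VSM_2. A further 772 were in a cluster of 3399 cells led by VSM_3 (59.8%), where VSM_2 was 25% of the named cells, and 160 in one led by VSM_0 (53.5%). No cluster of all cells was thus mostly VSM_2. The share in the first of these averaged 50.8% ± 10.2 (SD, n = 4) at thermoneutrality, 56.0% ± 18.5 (n = 4) at room temperature, 62.8% ± 17.4 (n = 3) after 2 days of cold and 51.4% ± 16.0 (n = 4) after 7 days. These differences were within the spread between libraries, with adjusted exact permutation p-values of 0.891 or more.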

How the data were processed

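Per the labels' protocols, tissue was digested, the adipocyte layer discarded, red cells lysed and dead cells depleted before Chromium v3 3' libraries were made. STAR, Cell Ranger 3.0.1 and mm10 are named in the submitters' processing notes. For cell filters, integration and clustering, settings were not given in the sources used here.

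UMI counts and gene counts, not normalised, were deposited by the authors for each cell. Mitochondrial share was deposited by the authors as a fraction and is given here in percent. Phase scores, phase calls, cluster numbers and cluster names were also deposited by the authors; each score was compared only within its table. With gene values not analysed here, no name could be checked against markers, no doublet caller was run and depth was not equalised by thinning.

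Cells were counted per cluster and library, and the library was the replicate. Log2 odds or log2 ratios, 0.5 cells added, were fitted with limma 3.58.1 (R 4.3.3) for every cluster averaging 10 cells or more, in a single model of 4 groups from which 6 contrasts were read. Medians or means of depth, mitochondrial share (log2 of percent + 0.1) and scores per cluster were fitted likewise. P-values were two-sided and adjusted by Benjamini-Hochberg over clusters within a contrast, at a threshold of 0.05. Exact permutation tests used scipy 1.17.1. EdgeR 4.0.16 was an alternative, and limma was tested on simulated cell numbers. Clusters named outside VSM are the 5 largest past the threshold. The members, lists and tests were chosen with earlier results of these data known. Room temperature replicates 3 and 4 did not differ beyond sampling noise in the mix of VSM clusters (chi-square p = 0.0980) but had median depths of 6331 and 13918 UMIs in VSM_2, and were kept as 2 libraries; all other pairs within a condition differed.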

Additional observations from a re-analysis of the deposited data

Results flagged for a closer look

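The mean G2M score of VSM_2 cells in 7-day cold replicate 4 was -0.0255, while the other 3 libraries of 7-day cold lay between -0.0534 and -0.0497. The gap to the nearest library was 0.866 of the whole range, above the critical value of 0.829 for 4 libraries. That library held 14 VSM_2 cells. In all, 33 sets of 4 libraries were checked in this way, and chance alone marks about 1 in 20.

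The change of VSM_2 between 7-day cold and thermoneutrality differed from that of VSM_21, with a log2 ratio difference of -4.04 (adjusted p = 0.000160, limma), and from that of VSM_22, with -2.26 (adjusted p = 0.0291, limma). Between 7-day cold and room temperature it differed from that of VSM_21 with -2.82 (adjusted p = 0.00539, limma).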

How the results depend on the processing

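Of 1047 alternative values over 50 results, 948 kept direction and side of the threshold, 67 lost a call, 15 gained one and 17 turned in sign, none of these with a call; 23 results never changed. The cause was not tested. Small differences turned in sign. Per other VSM cell, 2-day cold against thermoneutrality gave 0.0169 with a covariate for the pair of replicate numbers (1 and 2, or 3 and 4), 0.00371 with the replicate block and 0.0113 in libraries of 3000 cells or more, and 7-day cold against room temperature gave 0.0138 without cells called S or G2M and 0.0316 without VSM_21 among the comparison cells. Room temperature against thermoneutrality as a share of all cells gave 0.0253 in edgeR. The S score of 2-day cold against thermoneutrality was 0.0104 in the table of all cells, an alternative chosen after seeing the data. The 7-day fall in the share of named cells was -1.51 without cells called S or G2M (adjusted p = 0.0920, limma).

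For 7-day cold against thermoneutrality, the covariate left the estimates of 0.56 for log2 UMIs, 0.36 for log2 genes, 0.32 for log2 mitochondrial percent and -0.00716 for the S score as they were and brought them past the threshold, with limma adjusted p-values of 0.0483, 0.0466, 0.0399 and 0.0224. It did the same for the ratio of VSM_2 to VSM_20 (adjusted p = 0.0425), where it was chosen after seeing the data. With at least 20 cells per library the log2 mitochondrial difference was 0.38 against room temperature and 0.45 against 2-day cold, neither past the threshold. Within the middle depth window the S score against room temperature was -0.00993 and the log2 odds of a phase call against 2-day cold -0.60, and neither passed. With the table of all cells the S score of 7-day cold passed against thermoneutrality (-0.0262) and 2-day cold (-0.0366), and the log2 odds did not pass against thermoneutrality (-0.37), room temperature (-1.13) or 2-day cold (-0.30).

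The deviations of same-numbered libraries from their group means had a median correlation of 0.220, against -0.0355 for other pairs. Of the 21 same-numbered pairs 12 correlated above 0.1, the lowest at -0.302, and 7 of 15 libraries correlated best with their own number, so the numbers were not taken to pair the libraries. With the replicate block, the mitochondrial difference against room temperature was 0.37 and lost its call (adjusted p = 0.0691, limma), and the S score against thermoneutrality, -0.00716, gained one (adjusted p = 0.0382); no other call changed.

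Leaving out single libraries gave these ranges where a sign or call changed. Per other VSM cell: -0.183 to 0.0113 for 2-day cold against thermoneutrality (turned without thermoneutral replicate 2) and -0.611 to 0.131 for 7-day cold against room temperature (turned without room temperature replicates 1 or 2 or 7-day replicate 3). Share of named cells: -1.84 to -1.56 for 7-day cold against thermoneutrality and -1.61 to -0.65 against room temperature. Share of all cells: -1.16 to 0.278 for room temperature against thermoneutrality (turned without room temperature replicate 4) and -2.71 to -1.27 for 7-day cold against room temperature. VSM_2 to VSM_1 ran from -0.160 to 0.775 and VSM_2 to VSM_27 from -0.502 to 1.23. The log2 mitochondrial difference ran from 0.240 to 0.371 against thermoneutrality (gained without 2-day replicate 2), 0.320 to 0.454 against room temperature and 0.280 to 0.595 against 2-day cold. The S score against room temperature ran from -0.0137 to -0.00837. The G2M score ran from -0.0265 to -0.0171 for 7-day against 2-day cold (lost without 2-day replicate 4) and from -0.0121 to -0.00826 for 2-day cold against thermoneutrality (gained without 7-day replicate 4). The log2 odds of a phase call for 7-day against 2-day cold ran from -1.45 to -0.94 (lost without 2-day replicate 4). Finer cluster 0 ran from -2.49 to -1.45 and finer cluster 3 from -1.81 to -1.32 for 7-day cold against thermoneutrality. The ratio of VSM_2 to VSM_22 ran from -2.69 to -1.78, to VSM_20 from -1.78 to -1.05 and to VSM_3 from -1.32 to -0.92. The ratio to VSM_21 kept its call in 17 of 17 settings against thermoneutrality and in 17 of 17 against room temperature.

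The 7-day libraries held 14 to 40 VSM_2 cells each, so shares within VSM_2 rest on few cells there, and differences between their phase shares are coarse. Cell barcodes, not molecules of any gene, are the unit behind every share.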
